A study of Mus musculus with 8 samples.

Results

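The molecular clock of skeletal muscle was followed here through 10 genes measured in both legs of 4 mice: *Arntl* and *Clock*, *Per1*, *Per2* and *Per3*, *Cry1* and *Cry2*, *Nr1d1* and *Nr1d2*, and *Dbp*. Each gene was taken from the array table by its symbol. All 10 were found among 22206 probe sets, each in 1 row that named no other gene. The muscle was gastrocnemius (GAS) of male C57/Bl6j mice, 14 weeks old per the labels. One leg of each animal was injected with an adeno-associated virus (AAV) that carried, under a U6 promoter, a short hairpin RNA against the product of *D230025D16Rik*, the gene coding for MYTHO (AAV sh-RNA MYTHO, n = 4). The opposite leg received an AAV with a scramble hairpin under the same promoter (AAV sh-RNA scrmb, n = 4), and the muscles were taken 3 weeks later. The 4 animals are called A to D, so each has a scrmb array and a MYTHO array. Every leg had thus been given virus, and the U6 promoter is active in any cell type the virus enters. The time of day at which the muscles were collected is not given in the sources used here.

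The circadian clock is a feedback loop of transcription that runs in nearly every cell. ARNTL (also called BMAL1) and CLOCK bind E-boxes and switch on the *Per*, *Cry* and *Nr1d* genes, PER and CRY proteins then block ARNTL and CLOCK, and the NR1D receptors repress *Arntl* through ROR elements. In mouse tissues *Arntl* is therefore high when *Nr1d1* and *Dbp* are low, and the muscle clock, which is set by feeding, activity, body temperature and glucocorticoid, controls genes of glucose and lipid use.

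Promoters are printed for the clock genes that held an E-box, an E-prime-box or a D-box, response elements of this loop, before a start site. The sequences come from RefSeq promoter windows (GRCm38.p6, the assembly of mm10), which held 9 of the 10 genes in 13 windows of 300 bases. The bases shown are the 250 before a start site, 5′ to 3′ on the strand of the gene. Capitals mark an E-box (CACGTG), an E-prime-box (CACGTT, here on the opposite strand as AACGTG) or a D-box (TTATGTAA or TTACGTAA). The E-box and E-prime-box bind ARNTL and CLOCK, and the D-box binds DBP and its opponent NFIL3.
Per1: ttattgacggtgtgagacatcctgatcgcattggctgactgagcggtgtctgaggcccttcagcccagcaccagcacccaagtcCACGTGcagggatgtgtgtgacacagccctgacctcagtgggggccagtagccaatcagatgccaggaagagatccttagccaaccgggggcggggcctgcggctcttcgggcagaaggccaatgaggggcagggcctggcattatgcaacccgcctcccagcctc
Cry1: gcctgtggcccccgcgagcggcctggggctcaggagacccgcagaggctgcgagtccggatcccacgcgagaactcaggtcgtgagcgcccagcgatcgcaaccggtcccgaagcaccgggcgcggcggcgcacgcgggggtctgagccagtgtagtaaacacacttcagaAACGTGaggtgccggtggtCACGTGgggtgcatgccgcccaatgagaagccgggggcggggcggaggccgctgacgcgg
Nr1d1: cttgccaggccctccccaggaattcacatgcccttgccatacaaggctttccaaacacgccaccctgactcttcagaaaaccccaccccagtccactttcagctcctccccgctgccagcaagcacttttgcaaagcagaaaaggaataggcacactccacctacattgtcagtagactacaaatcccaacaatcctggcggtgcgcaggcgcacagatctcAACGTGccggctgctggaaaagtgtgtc
Cry2: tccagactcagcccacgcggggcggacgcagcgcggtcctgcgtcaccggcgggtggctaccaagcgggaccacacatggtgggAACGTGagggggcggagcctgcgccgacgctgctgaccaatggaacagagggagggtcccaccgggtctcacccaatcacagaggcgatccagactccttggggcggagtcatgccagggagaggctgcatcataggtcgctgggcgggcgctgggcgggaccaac
Per3: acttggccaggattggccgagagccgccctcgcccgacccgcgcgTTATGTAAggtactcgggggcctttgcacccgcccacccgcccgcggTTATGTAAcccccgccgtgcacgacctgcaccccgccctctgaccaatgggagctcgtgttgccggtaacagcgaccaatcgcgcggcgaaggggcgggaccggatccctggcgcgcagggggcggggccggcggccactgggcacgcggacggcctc

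The *Per1* stretch is chr11:69098699-69098948 on the plus strand, inside the bounds of the gene and before one of its alternative start sites, with the E-box at position -166 counted from the start site. The *Cry1* stretch is chr10:85185055-85185304 on the minus strand, directly before the annotated gene, with an E-box at -60 and an E-prime-box at -79. The *Nr1d1* stretch is chr11:98775378-98775627 on the minus strand, also directly before the gene, with an E-prime-box at -28. In *Cry2*, at chr2:92434070-92434319 on the minus strand, an E-prime-box lay at -166. *Per3*, at chr4:151044666-151044915 on the minus strand, held D-boxes at -205 and -158. Searched on both strands in all 32851 windows of the table, CACGTG was found in 7.15%, CACGTT in 4.68% and a D-box in 1.06%. Of the clock genes with a window, 2 held an E-box, 3 an E-prime-box and 1 a D-box. A ROR element core (TAGGTCA or TGGGTCA, in 6.45% of all windows) was found in 1 of them, *Arntl*, at position 31 after the start site of its second window, and a cyclic AMP element (TGACGTCA, 1.79%) in 0 of 9. These matches are descriptions of the windows, and a window without a match says only that the letters are not in it.

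On all 8 arrays the median log2 signal lay between 6.39 and 6.47. *D230025D16Rik*, the targeted gene, gave 11.35, 11.31, 10.78 and 11.05 (log2 signal, animals A to D) after the scramble hairpin and 8.16, 8.20, 8.80 and 8.08 after the hairpin against it. It was lower in 4 of 4 animals, with a log2 difference of -2.81 (limma adjusted p = 0.00044, exact permutation p = 0.0286, the smallest that 4 against 4 arrays can give). The permutation relabels the 8 arrays freely and leaves out the pairing of the legs. The 10 fast fibre markers averaged 19.27 to 19.40 on every array, near the ceiling of 19.93, and GAS is a mostly fast muscle. The 3 satellite cell markers averaged 4.97 to 5.32. In such pieces of whole muscle, fewer cells of a type and less RNA per cell cannot be told apart.

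None of the 10 clock genes passed the adjusted threshold between the legs, and none passed it between the animals. With limma and a Benjamini-Hochberg adjusted p under 0.05, 0 of 10 were called between MYTHO and scrmb legs, against 6 (0.027%) of all probe sets. At an unadjusted p under 0.05, 1 of 10 differed, *Cry2*, where 12.4% of all probe sets did. Adding a change of 2-fold or more to that threshold left 0 of 10, against 1.51%. With animal as a block it was 0 of 10 at an adjusted p under 0.05 (0.00901% of all probe sets) and 1 of 10 unadjusted (12.6%). The unadjusted count without a block was 0 when the scrmb array of C, the MYTHO array of A or animal A was left out, and 2 without the scrmb array of A or the MYTHO array of D. Between animals, in a limma fit with leg and animal, 0 of 10 clock genes and 0 (0%) of all probe sets had an adjusted p under 0.05. Unadjusted, 3 of 10 were under 0.05, *Per1*, *Nr1d1* and *Dbp*, where 5.64% of all probe sets were, and the count was 1 without the scrmb array of A, the MYTHO array of B or animal B. The SD of the 4 animal means was above the size of the mean leg difference in 9 of 10 clock genes, all but *Cry2*, and in 51.9% of all probe sets. That mean cancels leg differences of opposite sign. The SD of the 4 leg differences was above the SD of the animal means in 5 of 10, *Arntl*, *Clock*, *Per1*, *Per3* and *Nr1d1*, and in 84% of all probe sets, and the medians of both SDs over the 10 genes were 0.28 and 0.27. These SDs are not on a common scale, since a difference of 2 arrays varies more than their mean even where animals do not differ. Near-equal medians thus do not mean equal spread. The median SD of animal means was 0.27 (log2) for the clock genes and 0.22 for all probe sets, while the median size of the leg difference was 0.14 and 0.20.

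**Figure D1:**
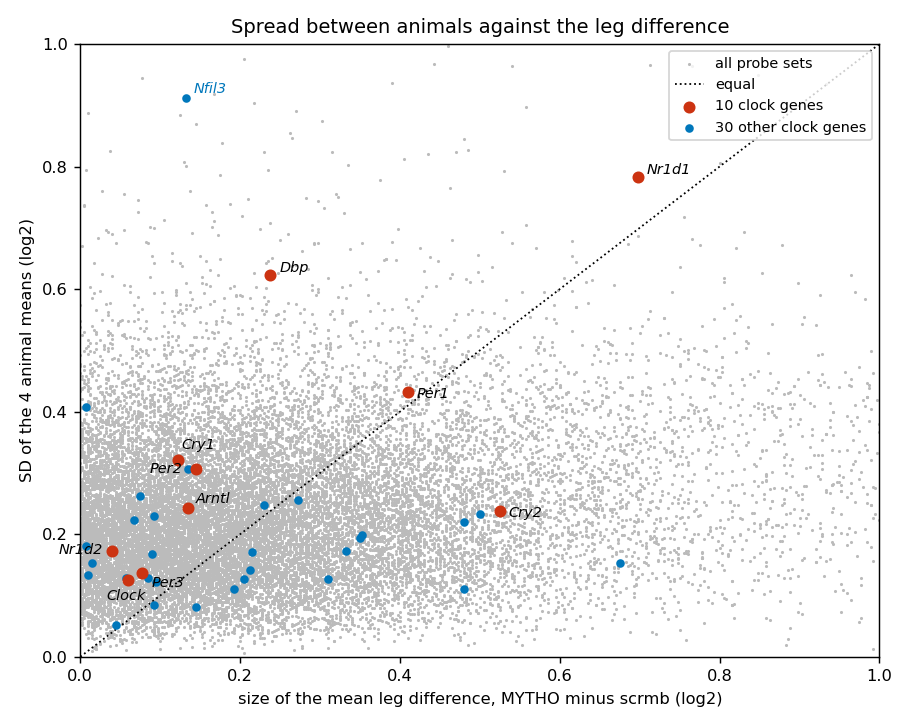
Each point is a probe set, with the size of its mean leg difference (MYTHO minus scrmb, log2) on the x axis and the SD of its 4 animal means (log2) on the y axis. Red points are the 10 clock genes, blue points 30 other clock regulators and outputs, grey points all probe sets, and the dotted line marks equal values. *Nr1d1* (0.70 and 0.78) and *Dbp* (0.24 and 0.62) lie high among the clock genes, *Cry2* (0.53 and 0.24) is the clock gene below the line, and 358 probe sets fall outside the axes, which end at 1.

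Animal B stood at an end of the range for most clock genes, and at the same end in both of its legs. It was the highest of the 4 animals in both legs for *Arntl*, *Per1*, *Per2* and *Cry1*, and the lowest in both for *Nr1d1*, *Nr1d2* and *Dbp*. That made 7 of 10 clock genes, where 11.4% of all probe sets had animal B at one end in both legs (6.26% highest, 5.19% lowest). For animal A it was 2 of 10 (12.1% of all probe sets), for C 1 of 10 (15.8%) and for D 1 of 10 (13.2%). Animal B was singled out after its values had been seen, and genes of a single loop are not independent of each other. Counted over any animal, the highest animal was the same in both legs for 6 of 10 clock genes (26.5% of all probe sets), the lowest for 5 of 10 (26.1%), and the whole order for 2 of 10, *Per1* and *Dbp* (4.15%).

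Markers of other cell types were compared between the animals in the same fit, and 0 of them had an adjusted p under 0.05. An unadjusted p under 0.05 between animals was found for 8 of 8 slow fibre, 3 of 4 Schwann cell, 2 of 4 adipocyte, 2 of 4 blood and 1 of 4 macrophage markers, where 5.64% of all probe sets had one, and for 0 of 10 fast fibre, 0 of 4 endothelial and 0 of 3 satellite cell markers. The slow fibre mean was highest in animal A and lowest in animal D in both legs, from 10.82 to 12.92 in the scrmb legs and from 10.75 to 14.10 in the MYTHO legs. The Schwann cell mean ran from 6.35 to 8.38 and from 6.37 to 7.29, and the blood mean from 11.70 to 13.70 and from 12.44 to 14.76. Of the slow fibre, Schwann cell, adipocyte and blood markers, 0 had animal B at the same end in both legs, against 11.4% of all probe sets, a share that would leave few among so short a list. Of the 4 macrophage markers, 3 were highest in animal B in both legs, against 6.26% of all probe sets. The part of these cells in the spread of *Per1*, *Nr1d1* and *Dbp* between animals was not tested.

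**Figure D2:**
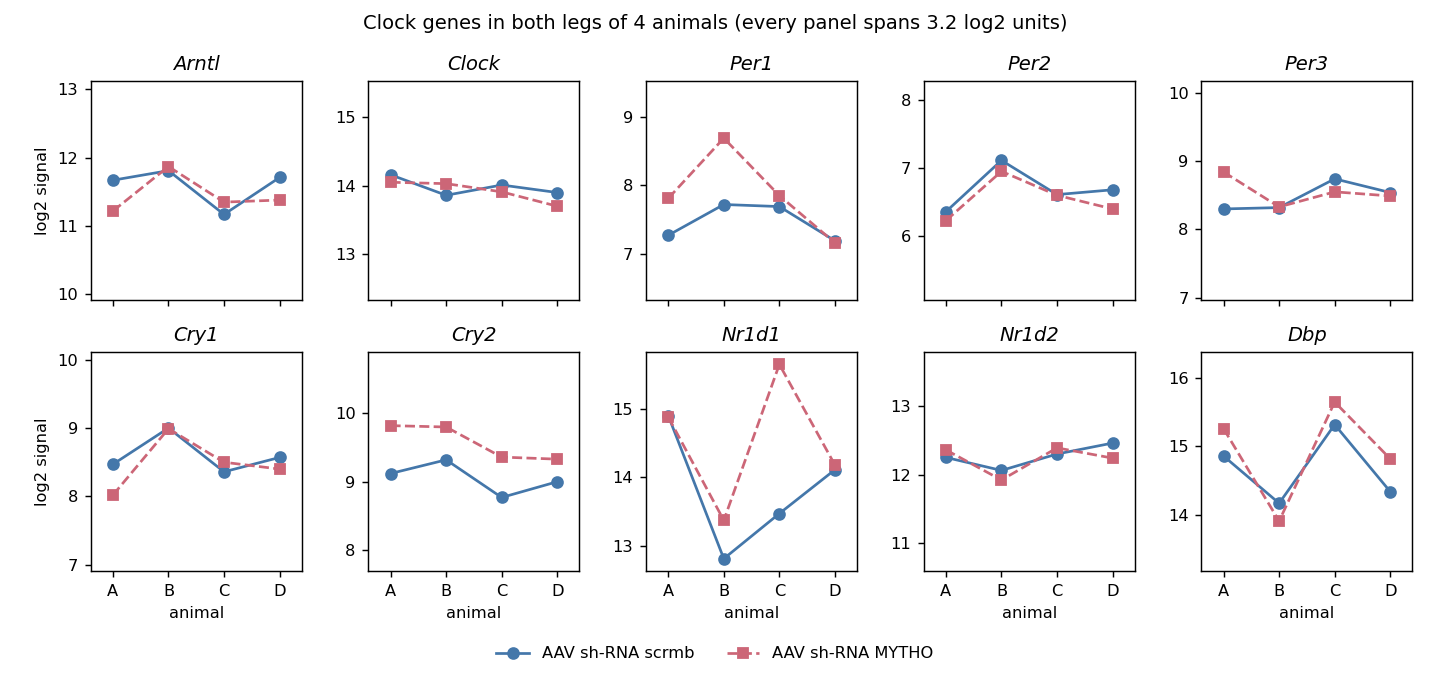
Log2 signal of the 10 clock genes in animals A to D, with blue circles for the AAV sh-RNA scrmb leg and red squares for the AAV sh-RNA MYTHO leg. Every panel spans 3.2 log2 units, and lines join the animals of one group for reading only. Animal B is the peak of *Arntl*, *Per1*, *Per2* and *Cry1* and the trough of *Nr1d1*, *Nr1d2* and *Dbp* in both legs, and the MYTHO squares of *Cry2* lie above all its scrmb circles.

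The activators of the loop come first. *Arntl* (chr7:113178471-113314126), which codes for the partner of CLOCK, had log2 signals of 11.67, 11.81, 11.17 and 11.71 in the scrmb legs (animals A to D, as in all lists of 4 values) and 11.22, 11.87, 11.35 and 11.38 in the MYTHO legs. Animal B was highest in both, and the groups overlapped. The log2 difference between legs was -0.14 ± 0.21 (SE, adjusted p = 0.848), with 2 animals in each direction, and ran from -0.28 without the scrmb array of C to -0.03 without animal A. The animal means ranged over 0.58 log2, or 1.49-fold (unadjusted p between animals = 0.264, adjusted p = 0.851). *Clock* (chr5:76209868-76305603), coding for the acetyltransferase that pairs with ARNTL, kept within 13.70 to 14.16 over all 8 arrays. It was highest in animal A in both legs, at 14.16 and 14.05. Its leg difference was -0.06 ± 0.17 (SE, adjusted p = 0.924) and its animal means spanned 0.31 log2 (adjusted p = 0.941).

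Among the repressors, the *Per* genes code for PERIOD proteins, which enter the nucleus with the CRYs. *Per1* (chr11:69095108-69109965), which also answers quickly to glucocorticoid and cyclic AMP, had log2 signals of 7.27, 7.72, 7.69 and 7.19 in the scrmb legs and 7.81, 8.69, 7.85 and 7.16 in the MYTHO legs. Animals fell in the same order in both legs, B highest, then C, A and D. The animal means spanned 1.03 log2, a 2.04-fold range (unadjusted p = 0.0455, adjusted p = 0.828). Between legs *Per1* was higher in MYTHO in 3 of 4 animals, by 0.54, 0.97 and 0.16 in A, B and C, with -0.03 in D. The mean was 0.41 ± 0.29 (SE, adjusted p = 0.610), between the SD of the scrmb arrays (0.28) and that of the MYTHO arrays (0.63), and it was 0.14 without the MYTHO array of animal B and 0.65 without that of D.

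*Per2* (chr1:91415977-91459351), the PERIOD gene whose loss disturbs rhythms most directly, gave 6.36, 7.11, 6.61 and 6.68 in the scrmb legs and 6.23, 6.95, 6.60 and 6.40 in the MYTHO legs. Animal B was highest and animal A lowest in each leg, and the legs of an animal differed by at most 0.28. The intraclass correlation, the share of variance that lies between animals once the mean of each group is taken off, was 0.94 over 4 animals and is given as a description. The leg difference was negative in 4 of 4 animals, from -0.01 in C to -0.28 in D, with a mean of -0.15 ± 0.22 (SE, adjusted p = 0.840). It was -0.0050 without the scrmb array of B and -0.28 without the MYTHO array of B. Among all probe sets 10.8% were lower in 4 of 4 animals. *Per3* (chr4:150997018-151044707), the PERIOD gene least needed for rhythm, showed no such tie. Its log2 signal ran from 8.30 to 8.74 in the scrmb legs and from 8.33 to 8.84 in the MYTHO legs, and animal A was lowest in the first and highest in the second. The intraclass correlation of *Per3* was -0.15 and its leg difference 0.08 ± 0.19 (SE, adjusted p = 0.906).

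The *Cry* genes code for cryptochromes, the strongest repressors of ARNTL and CLOCK. *Cry1* (chr10:85131700-85185054) had log2 signals of 8.47, 9.0, 8.36 and 8.57 in the scrmb legs and 8.02, 8.99, 8.50 and 8.40 in the MYTHO legs. Animal B was highest in both legs, at 9.0 and 8.99, and the other animals lay between 8.02 and 8.57. Its animal means spanned 0.75 log2 (unadjusted p = 0.0923, adjusted p = 0.828), and its leg difference was -0.12 ± 0.23 (SE, adjusted p = 0.877).

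*Cry2* (chr2:92403646-92434085) was the clock gene in which the legs separated. Its log2 signals were 9.12, 9.32, 8.77 and 9.0 in the scrmb legs and 9.82, 9.80, 9.36 and 9.33 in the MYTHO legs. The lowest MYTHO array, 9.33, was just above the highest scrmb array, 9.32, so the groups did not overlap, which held for 2.59% of all probe sets in this direction and 6.46% in either. The difference was 0.70, 0.48, 0.59 and 0.33 in animals A to D, and 8.94% of all probe sets were higher in 4 of 4 animals. Its mean of 0.53 ± 0.20 (SE, 95% interval 0.09 to 0.96) corresponds to 1.44-fold. The unadjusted p was 0.0212 and the exact permutation p, which leaves out the pairing of the legs, 0.0286. The adjusted p over all probe sets was 0.311, and 0.286 with animal as a block. Of the 4 endothelial markers, 0 had an adjusted p under 0.05 between legs, and 2, *Pecam1* and *Tek*, had an unadjusted p under 0.05, both higher in MYTHO legs (against 4.81% of all probe sets higher and 12.4% in either direction). The mean log2 signal of the 4 was 10.27 to 10.86 in the scrmb legs and 11.05 to 11.28 in the MYTHO legs, without overlap. The 8 slow fibre markers averaged 10.82 to 12.92 in the scrmb legs and 10.75 to 14.10 in the MYTHO legs, with differences of 1.17, 2.34, 2.71 and -0.07 in animals A to D. Of these 8, 6 were higher in MYTHO legs at an unadjusted p under 0.05 by limma, and 7 with animal as a block. In both fits 0 had an adjusted p under 0.05. The endothelial mean differed by 0.22, 0.43, 0.87 and 0.49 in animals A to D. The part of these cell types in the *Cry2* values was not tested.

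**Figure D3:**
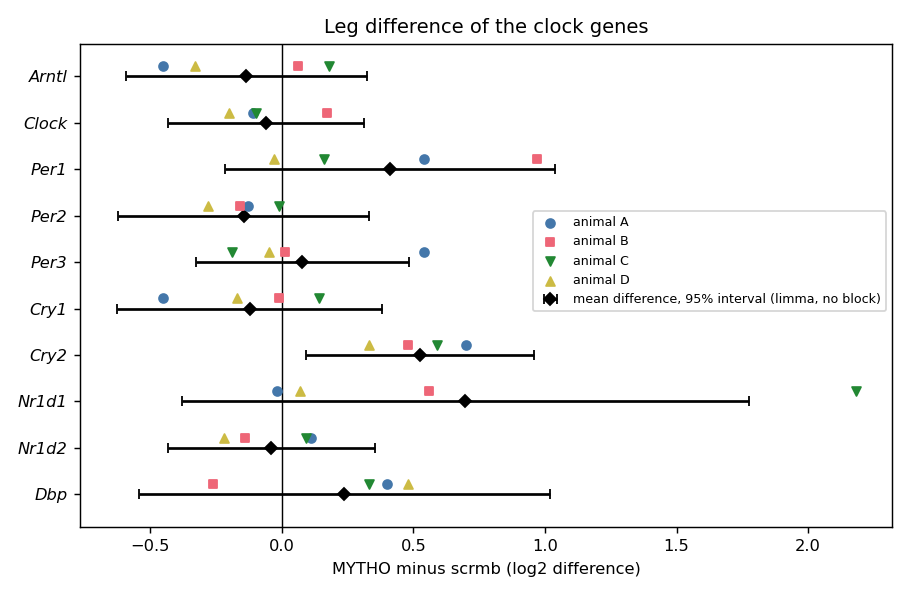
Difference between the legs of an animal (MYTHO minus scrmb, log2, x axis) for the 10 clock genes. Coloured symbols are the 4 animals, and black diamonds with bars are the mean and its 95% interval from the limma fit without a block. All 4 animals are above 0 for *Cry2* (0.33 to 0.70) and all 4 below 0 for *Per2*, and for *Nr1d1* animal C (2.18) lies apart from the others.

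The nuclear receptors NR1D1 and NR1D2 (REV-ERB alpha and beta) repress *Arntl* and, in muscle, genes of lipid metabolism. *Nr1d1* (chr11:98767932-98775377) had the widest spread of the 10 genes. Its log2 signals were 14.90, 12.81, 13.47 and 14.11 in the scrmb legs and 14.88, 13.37, 15.65 and 14.18 in the MYTHO legs. Animal B was lowest in both legs, the groups overlapped, and A and D hardly differed between legs. The animal means ran from 13.09 in B to 14.89 in A, a 3.48-fold range (unadjusted p = 0.0232, adjusted p = 0.828), and their SD of 0.78 exceeded that of 99.6% of all probe sets. The leg difference averaged 0.70 ± 0.49 (SE, adjusted p = 0.614), made up of -0.02, 0.56, 2.18 and 0.07 in animals A to D. Without animal C it was 0.20 (adjusted p = 0.941), and without the MYTHO array of B it was 1.08 (adjusted p = 0.488). The legs of animal C differed by 2.18, more than the 1.80 between the highest and the lowest animal mean.

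*Nr1d2* (chr14:18204056-18239106), the paralogue of *Nr1d1*, varied much less. Its log2 signals were 12.25, 12.06, 12.30 and 12.46 in the scrmb legs and 12.36, 11.92, 12.39 and 12.24 in the MYTHO legs. Animal B was again lowest in both, by a smaller margin than for *Nr1d1*. The leg difference was -0.04 ± 0.18 (SE, adjusted p = 0.957), and the animal means spanned 0.36 log2 (adjusted p = 0.888).

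*Dbp* (chr7:45705100-45710203) codes for a D-box activator and is a direct output of ARNTL and CLOCK with a very large daily swing. Its log2 signals were 14.86, 14.17, 15.32 and 14.34 in the scrmb legs and 15.26, 13.91, 15.65 and 14.82 in the MYTHO legs. In each leg the order was C, A, D and B from high to low. The animal means ran from 14.04 in B to 15.49 in C, a 2.72-fold range, with the smallest p between animals of the 10 genes (unadjusted p = 0.00339, adjusted p = 0.828, or 0.148 with trend and robust eBayes). The SD of the animal means, 0.62, was above that of 99.2% of all probe sets, and the intraclass correlation was 0.86. Between legs *Dbp* differed by 0.24 ± 0.36 (SE, adjusted p = 0.841), with 0.40, 0.33 and 0.48 in A, C and D and -0.26 in B. The mean was -0.0092 without the MYTHO array of C and 0.57 without that of B.

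Other parts of the clock machinery were examined as a list of 30 regulators and outputs, all found on the array. The gene most tied to the animal was *Nfil3*, which codes for the D-box repressor that opposes DBP. Its log2 signals were 8.69, 10.26, 8.55 and 9.42 in the scrmb legs and 8.78, 10.90, 8.59 and 9.18 in the MYTHO legs. Animal B was highest and animal C lowest in both legs, the reverse of *Dbp*. The unadjusted p between animals was 0.000253 and the adjusted p 0.727 (0.079 with trend and robust eBayes), and the leg difference was 0.13 ± 0.49 (SE, adjusted p = 0.945). *Nfil3* was the only gene of the list with an unadjusted p under 0.05 between animals, 1 of 30 (3.33%, against 5.64% of all probe sets), and 3 of 30 had animal B at the same end in both legs (against 11.4%). The list as a whole had a median SD of animal means of 0.17, against 0.22 for all probe sets.

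Between legs, 0 of these 30 genes had an adjusted p under 0.05 by limma. At an unadjusted p under 0.05, 3 were higher in MYTHO legs (10%, against 4.81% of all probe sets) and 0 lower (against 7.58%). *Ciart*, a circadian repressor of ARNTL and CLOCK, had log2 signals of 5.82, 6.57, 6.84 and 6.34 in the scrmb legs and 7.25, 7.05, 6.93 and 7.04 in the MYTHO legs, a difference of 0.68 ± 0.22 (SE, adjusted p = 0.251) without overlap, which was 0.42 without animal A. *Rorb*, an activator at ROR elements, differed by 0.48 ± 0.19 (SE, adjusted p = 0.326), higher in 4 of 4 animals from a low signal of 4.17 to 5.06. *Tef*, a D-box activator related to DBP, differed by 0.50 ± 0.22 (SE, adjusted p = 0.381), higher in 3 of 4 animals, and by 0.33 without animal B.

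**Figure D4:**
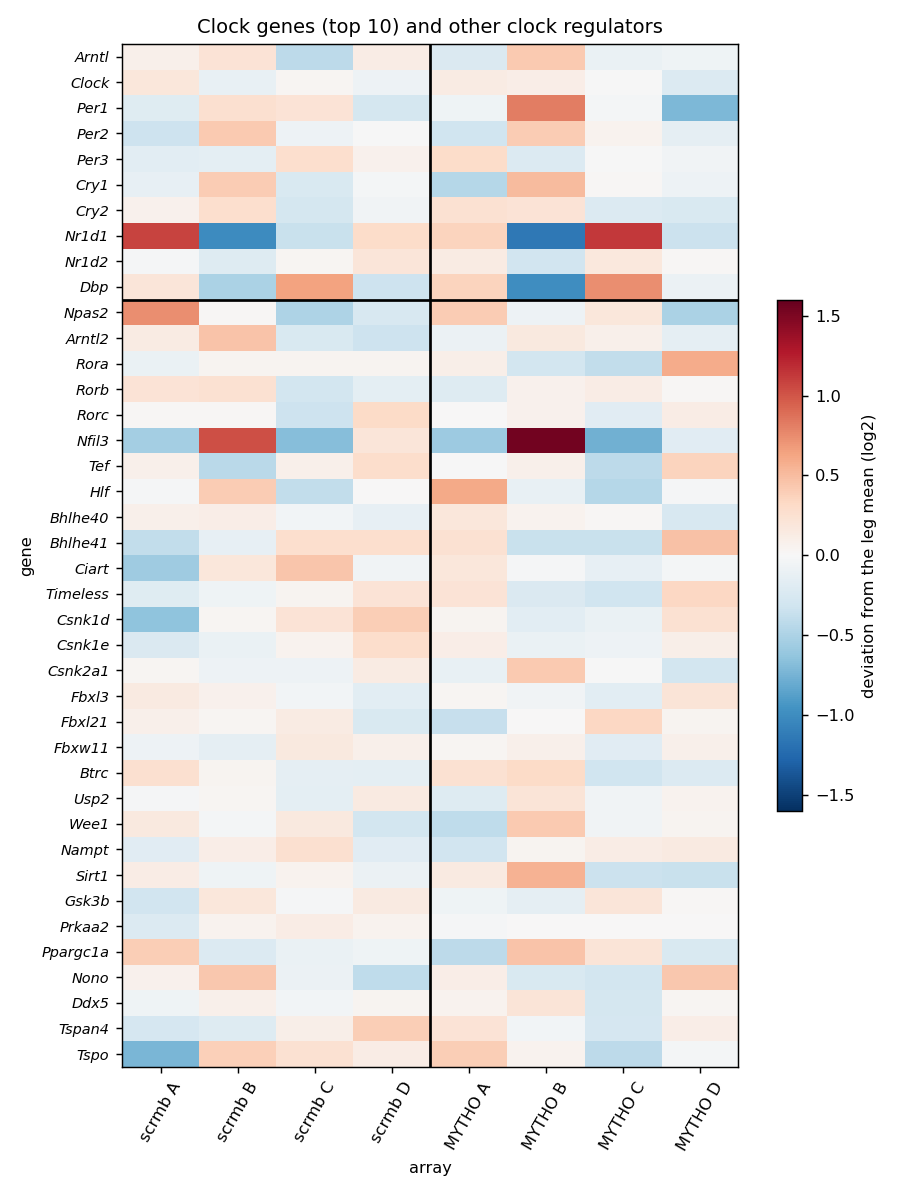
Deviation of each array from the mean of its group (log2, colour scale) for the 10 clock genes, above the horizontal line, and the 30 other clock regulators and outputs, below it; the vertical line divides scrmb from MYTHO arrays. The columns of animal B are on the red side for *Arntl*, *Per1*, *Per2*, *Cry1* and *Nfil3* and on the blue side for *Nr1d1*, *Nr1d2* and *Dbp* in both legs. Some of these cells are pale, such as *Arntl* in scrmb B (0.22). Some other rows hold larger deviations, such as *Npas2* in scrmb A (0.74).

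Cues that reach both legs alike were followed through genes known to answer to glucocorticoid and to body temperature. Of 11 glucocorticoid genes, 6 had an unadjusted p under 0.05 between animals (54.5%, against 5.64% of all probe sets) and 0 an adjusted p under 0.05, and 6 were highest in animal B in both legs (against 6.26%). With the temperature genes included, 7 had an unadjusted p under 0.05 between animals, and 3 without the MYTHO array of B. The mean log2 signal of the list was 12.16 in animal B against 11.37 to 11.65 in the other scrmb legs, and 12.46 against 11.66 to 11.97 in the MYTHO legs. *Cdkn1a*, the cell cycle inhibitor p21, was highest in B in both legs, at 10.92 and 11.37, with the others from 9.61 to 11.07 (unadjusted p = 0.00464). *Zbtb16* (unadjusted p = 0.00779), *Errfi1* (unadjusted p = 0.00913), *Pdk4* (unadjusted p = 0.0123) and *Mt2* (unadjusted p = 0.0372) likewise differed between animals before adjustment. Between legs 1 of 11 had an unadjusted p under 0.05, *Ddit4* (0.0402), where 12.4% of all probe sets did. It is outside the naming rule and is given because it was the single one. Animal B, at an end of the range for 7 clock genes, thus also had the highest mean of the glucocorticoid list in each leg. Not every gene of that list followed. *Fkbp5*, also outside the naming rule, was highest in animal D in both legs, at 12.88 and 13.19, against 12.19 and 12.06 in B. The mean of the temperature list was highest in B as well, at 11.31 against 10.94 to 11.14 in the other scrmb legs. In the MYTHO legs it was 11.01 against 10.54 to 10.82, and 3 of its 7 probe sets were highest in B in both legs. The 4 macrophage markers also had their highest mean in B, at 7.60 against 7.16 to 7.38 in the other scrmb legs. In the MYTHO legs it was 7.95 against 7.35 to 7.72, and 3 of 4 were highest in B in both legs. The part of these lists in the clock gene values was not tested.

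Of the temperature genes, *Cirbp* and *Rbm3*, cold-inducible RNA-binding proteins, were lower in the MYTHO leg before adjustment, while their unadjusted p between animals was 0.692 and 0.319. *Cirbp* had log2 signals of 7.50, 8.12, 8.49 and 8.16 in the scrmb legs and 7.15, 7.38, 6.19 and 6.38 in the MYTHO legs, a difference of -1.29 (unadjusted p = 0.00092, adjusted p = 0.124). *Rbm3* differed by -1.20 (unadjusted p = 0.00559, adjusted p = 0.213), also lower in 4 of 4 animals, and the difference was -0.78 without animal C. CIRBP is known to bind the *Clock* transcript. *Clock* itself differed by -0.06 between the legs, and a link between these values was not tested. *Dnajb1*, a heat shock co-chaperone, differed between animals before adjustment (unadjusted p = 0.0254), with 7.55 and 8.0 in animal B as its highest values in each leg. The remaining 4 distinct probe sets of this list, in which *Hspa1a* and *Hspa1b* share a row, had an unadjusted p above 0.05 in both fits.

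Known clock-controlled genes of muscle gave 5 of 14 with an unadjusted p under 0.05 between animals (35.7%, against 5.64% of all probe sets), and 0 with an adjusted p under 0.05 in either fit. The count between animals was 2 without animal C and 7 without animal A. *Myod1*, the myogenic factor that ARNTL and CLOCK switch on, had log2 signals of 6.51, 6.82, 5.40 and 6.74 in the scrmb legs and 6.49, 7.02, 5.76 and 6.85 in the MYTHO legs. Its order of B, D, A and C was the same in both legs (unadjusted p = 0.00202, adjusted p = 0.828), the exact reverse of *Dbp*. *Tbc1d1*, a regulator of glucose uptake, had 10.92 and 10.55 in animal B and 9.40 and 9.38 in animal A (unadjusted p = 0.0023, adjusted p = 0.828). *Pdk4*, *Ucp3* and *Hk2*, genes of fuel choice, were the others with an unadjusted p under 0.05, and *Pdk4* is also one of the 6 glucocorticoid genes. Between legs, 2 of 14 had an unadjusted p under 0.05, where 12.4% of all probe sets did. With animal as a block it was 3 of 14, against 12.6% of all probe sets. *Dgat2*, an enzyme of triglyceride synthesis, differed by 0.81 (unadjusted p = 0.00954, adjusted p = 0.243) and *Lpl*, lipoprotein lipase, by 1.33 (unadjusted p = 0.0112, adjusted p = 0.258), the latter 0.82 without animal B. By animal, A to D, *Lpl* differed by 0.47, 2.86, 2.31 and -0.31 and *Dgat2* by 0.76, 0.85, 1.35 and 0.26. The adipocyte marker mean ran from 5.46 to 9.69 in the scrmb legs and from 5.68 to 10.92 in the MYTHO legs. Its differences were 3.02, -3.1, -1.53 and 0.865, and those of the slow fibre mean 1.17, 2.34, 2.71 and -0.07. The part of these cell types in the *Lpl* and *Dgat2* values was not tested.

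The genes whose pattern was most like that of *Dbp* were found by Pearson correlation over the 8 arrays after the mean of each group had been taken off, among 10532 probe sets of the upper 50% by mean signal with 1 gene symbol. The 8 arrays come from 4 animals and share the signal scaling, so the values are descriptions. The highest were *Necap2* (0.99), *Slc24a3* (0.97), *Acpt* (0.95), *Lhx8* (0.95) and *Clec1a* (0.94), and the lowest *Galm* (-0.99), *Klf7* (-0.99), *Cnppd1* (-0.98), *Ip6k3* (-0.97) and *Klf10* (-0.97). *Nfil3* stood at -0.95. Among the other clock genes, *Nr1d2* (0.72), *Nr1d1* (0.70), *Per3* (0.64) and *Clock* (0.15) were positive. *Arntl* (-0.88), *Cry1* (-0.76), *Per2* (-0.65), *Cry2* (-0.58) and *Per1* (-0.38) were negative. *Klf10*, a Kruppel-like factor under clock control, had log2 signals of 7.83, 8.30, 7.43 and 8.28 in the scrmb legs and 8.10, 8.84, 7.43 and 8.15 in the MYTHO legs. It was thus highest in animal B and lowest in animal C in both legs, at opposite ends to *Dbp*.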

How the data were processed

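The authors extracted RNA with Trizol, hybridised biotin-labelled samples to Clariom S Mouse arrays and deposited log2 signals made with the Transcriptome Analysis Console 4.0.1 at default settings (per the file headers, gene-level SST-RMA, annotation release 36, mm10). Group averages, fold changes, p-values and false discovery rates of the authors in the same table were not used. The deposited log2 signals are rounded, end at 19.93 and were tested as they are with limma 3.58.1 in R 4.3.3 (lmFit, eBayes, two-sided, Benjamini-Hochberg over all 22206 probe sets). The leg comparison had no block, since the array methods name no pairing term, and the comparison between animals was a moderated F test with leg in the model. Each column name holds the number of an animal, found once in each group, so the arrays of an animal are its 2 legs and are paired by design. No column could be matched to a replicate number of the labels. Deviations from the group means correlated at 0.003, -0.001, 0.135 and 0.087 within animals A to D and at -0.167 to 0.104 between legs of different animals, so over all probe sets the legs of A and B were no more alike than those of different animals. The steps were tested on simulated data. Members and gene lists were chosen with earlier results of these data known. Besides the 10 genes and the target, genes of a list were named at an unadjusted p under 0.05 in either fit, at most 8 per list, with glucocorticoid and temperature genes as 1 list. Motifs were searched with Python 3.11.15, and figures were drawn with matplotlib 3.10.9. Alternatives were other scalings, filters, eBayes settings, array weights, blocks and leaving out each array or animal. With 4 arrays per group, their number limits the precision.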

Additional observations from a re-analysis of the deposited data

Results flagged for a closer look

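Among 58 groups of 4 arrays, those of the named genes, 2 held an array far from the other 3, and chance flags about 1 in 20 such groups. *D230025D16Rik* in the MYTHO leg of animal C was 8.80 against 8.08 to 8.20 in the other MYTHO legs (gap over range 0.833). The same leg had the highest *Nr1d1* signal of all arrays, 15.65. *Ucp3*, a mitochondrial uncoupling protein gene, was 12.87 in the MYTHO leg of animal B against 11.21 to 11.35 in the others (gap over range 0.916). In its scrmb leg animal B was also highest, at 11.36 against 10.37 to 11.09.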

How the results depend on the processing

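Of 834 values for single genes under the alternatives, 823 kept their direction and side of the threshold, 10 turned and 1 passed it: *Cirbp* with trend and robust eBayes (adjusted p = 0.0458), which made 1 systemic cue gene called between legs. With animal as a block, the pairing gave 0 clock genes at an adjusted p under 0.05 and 1, *Cry2*, at an unadjusted p under 0.05, as without it, and changed no other call of the clock genes. Quantile normalization turned *Nr1d2* to 0.0031. Trend and robust eBayes moved the other clock genes under an unadjusted 0.05 between legs from 3 to 5, and the muscle genes between animals from 5 to 8. Without a leg term the clock genes under 0.05 between animals went from 3 to 1 and the muscle genes to 3. The spelling CANNTG, found in 72.3% of all windows, raised the clock genes with an E-box from 2 to 6. Animal B stood at one end in 6 clock genes with quantile normalization and in 8 with median centring, both tried after seeing the data. Leaving out 1 array or animal gave 0 to 2 clock genes under an unadjusted 0.05 between legs (2 without scrmb A or MYTHO D, 0 without scrmb C, MYTHO A or animal A) and 0 to 1 at 2-fold (1 without scrmb A or MYTHO B). Between animals it gave 1 to 3, with 1 without scrmb A, MYTHO B or animal B. The other clock genes ranged from 1 to 4 between legs and 1 to 2 between animals, the systemic cue genes from 2 to 4 and 3 to 9, and the muscle genes from 0 to 4 and 2 to 7. The leg difference ranged from -0.29 to 0.03 for *Cry1*, -0.11 to 0.0625 for *Nr1d2*, -0.077 to 0.17 for *Per3*, -0.0092 to 0.57 for *Dbp* and -0.14 to 0.014 for *Clock*. The cause of these moves was not tested. With 4 arrays per group, the 95% intervals of the 10 leg differences reached down to -0.63 (*Cry1*) and up to 1.77 (*Nr1d1*).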
